A study of Citrus sinensis with 2 samples.

Results

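The known miRNAs miR159, miR828 and miR858, which are linked to MYB transcription factors, were followed in leaves of 'Xuegan' sweet orange (Citrus sinensis) with and without Mg. They were taken from the deposited table of known miRNA counts by name, and all 3 are among its 1215 names. Seedlings were watered for 16 weeks with a nutrient solution of 1 mM MgSO4 (Mg-sufficient, giving the control library) or of 0 mM MgSO4 (Mg-deficient, giving the deficient library). Sodium sulfate replaced the MgSO4 in the latter, so that both nutrient solutions held the same amount of sulfur. Each library came from fully expanded leaves of 5 plants that were mixed before the RNA was extracted, so that 1 value per treatment was obtained and no spread between plants could be measured. The extraction label names leaves and, in 1 place, roots, and the small RNA counts hold no marker transcript by which the tissue could be checked.

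MiRNAs are short RNAs of plants that pair with nearly complementary sites in mRNAs, which are then cleaved or translated less. MYB proteins form one of the largest families of plant transcription factors. MiR159 is an old and usually abundant miRNA, and in Arabidopsis it represses GAMYB-like genes such as MYB33 and MYB65, which take part in gibberellin responses of the aleurone and the anther. MiR858 pairs with the R2R3-MYB genes MYB11, MYB12 and MYB111, which switch on flavonol synthesis in Arabidopsis. In the same species, miR828 pairs with MYB genes of anthocyanin synthesis and trichome formation and with the TAS4 transcript, and starts the production of phased small interfering RNAs from them. No mRNA was measured in the files used here, so that the response of MYB genes was not followed.

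Sequences were listed by the study for 690 of the known miRNAs, among them miR159 and miR858. The sequence of miR828 is not printed here. The listed sequences of both members are shown for comparison with those of miR319, miR5181 and miR6300. MiR319 is a name of the same family as miR159, miR5181 overlaps miR159 in sequence, and miR6300 has the seed of miR858. The reads counted under a name were not seen and can differ from its listed sequence. The seed, bases 2 to 8 from the 5′ end, is in capitals.
miR159: uUUGGAUUgaagggagcucua
miR858: cUCGUUGUcuguucgaccuug
miR319: aUCCAACGaagcaggagcugu
miR5181: cUUUUUGGauugaaggga
miR6300: gUCGUUGUaguauaguggug

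Both members had 21 nt, a length shared by 34.9% of the listed sequences. MiR159 began with U, the first base of 49.7% of the listed sequences and the one that the slicing protein AGO1 prefers. The listed sequence of miR858 began with C, found in 10.3%. The authors allowed 2 mismatches to miRBase, so that this base need not be that of the miRBase entry. Side by side, miR159 and miR858 differed at no fewer than 9 of 16 overlapping bases, and their seeds were not alike. The seed of miR159 was found in no other listed sequence. That of miR858 was found in 1, miR6300, which differed from miR858 at 10 of 20 bases when both were set from their first base. A plant miRNA pairs over almost its whole length, so that a shared seed alone gives no shared target. The listed sequence of miR319 did not resemble miR159, with at least 7 mismatches over 16 bases, although the mature miR319 of other plants is close to miR159. The name miR319 in these counts is therefore not read as a near copy of miR159.

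Genes of the members were looked up in RefSeq's table for the sweet orange assembly DVS_A1.0. The authors mapped to another build, so names and neighbours but no coordinates were taken. The table holds 4 genes of the miR159 family. These are MIR159A, MIR159B, MIR159C and MIR159D, the last of which has MIR319 as a synonym. None of the 4 overlaps another annotated gene. One gene is named MIR858, and it lies within the long non-coding RNA gene LOC102628789. The counts carry no letter after the family name, so that the reads of the miR159 genes could not be told apart. Whether reads of MIR159D were counted under miR159 or under miR319 was not tested.

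The levels of the 3 members differed by orders of magnitude, and in both libraries miR159 was highest and miR828 lowest. Values are given as reads per 1000000 clean reads (RPM, named TPM by the study) with 95% Wilson intervals, and changes as the log2 ratio of the deficient to the control library with an interval from the exact Clopper-Pearson limits. Both intervals cover counting error only, and PCR copies of 1 molecule are counted as separate reads. The control library held 22218850 and the deficient library 20328011 clean reads. The summed counts of all known miRNA names came to 22.9% and 14.8% of these, respectively. In both cases this sum is larger than the number of miRNA reads that the study gives beside the same clean-read total.

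Counts of miR159 were 5295 in control leaves and 3647 in Mg-deficient leaves. This was a normalized read-count of 238 RPM (95% interval, 232 to 245) with Mg and 179 RPM (174 to 185) without. By its count it was 44th of all names in the control and 54th in the deficient library. The level was 1.33-fold lower without Mg, at a log2 ratio of -0.41 (-0.47 to -0.35), and the intervals of the 2 libraries did not overlap. The direction depended on the library size that was used, as shown further on.

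For miR858, 837 reads were counted in control leaves and 338 in Mg-deficient leaves. Its normalized read-count was 37.7 RPM (95% interval, 35.2 to 40.3) with Mg and 16.6 RPM (14.9 to 18.5) without. The level was 2.27-fold lower without Mg, and the log2 ratio was -1.18 (-1.37 to -0.996). Its rank among all names went from 116th to 198th. Of the 3 members, miR858 had the lowest log2 ratio, but its order against miR828 was not resolved, as the interval of miR828 (-3.50 to 1.36) was wider and held that of miR858.

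MiR828 was found by 6 counts in control leaves and by 3 in Mg-deficient leaves. These are 0.270 RPM (95% interval, 0.124 to 0.589) and 0.148 RPM (0.0502 to 0.434), and the intervals overlap. The log2 ratio was -0.87 with an interval from -3.50 to 1.36, so that no difference was detectable at this depth. As many counts or fewer were found for 402 of the 1215 names in the control and for 423 in the deficient library. Beside 6 control counts, a higher value would have fallen below the study's p threshold of 0.01 from 18 counts upward. A lower value could not have done so, since even 0 counts give p = 0.0106 in the exact Audic-Claverie formula.

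**Figure D1:**
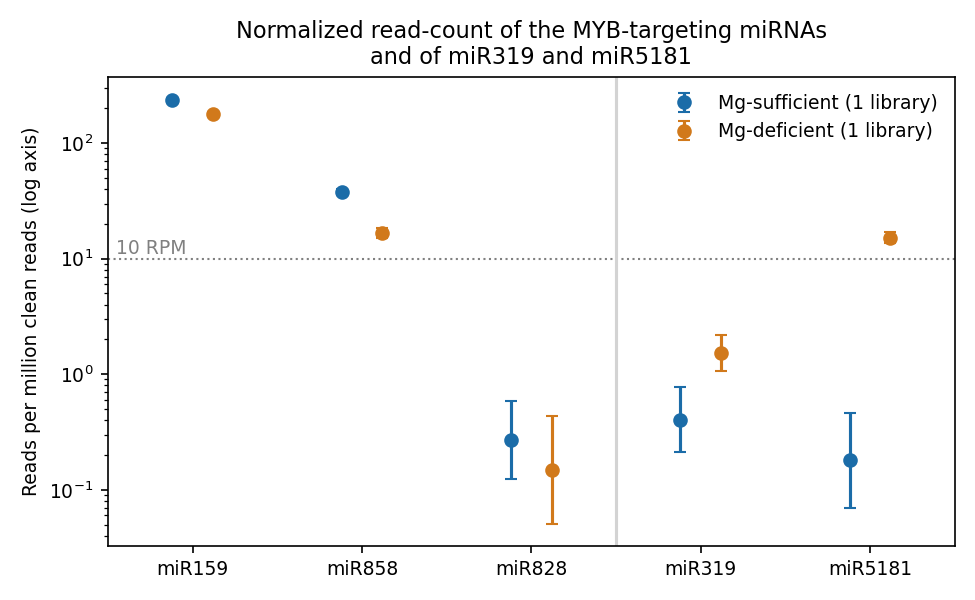
Normalized read-count (RPM, log axis) of miR159, miR858 and miR828, and of miR319 and miR5181 to the right of the vertical line, in the control (Mg-sufficient, blue) and the deficient (orange) library. Points are 1 library each, bars are 95% Wilson intervals of counting error, and the dotted line marks 10 RPM; miR159 and miR858 lie above that line in both libraries and miR828 lies below it in both.

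The study's rule for a changed miRNA asks for at least 10 RPM in 1 library, a p-value below 0.01 and a log2 ratio beyond 1.5. MiR159 and miR858 passed the abundance filter and miR828 did not. Neither of the 2 that passed was beyond 1.5 in either direction, where 53.7% of the 324 known miRNAs that passed were, 25.6% on the lower and 28.1% on the higher side. In numbers, 91 were higher and 83 lower with the clean-read totals, against 114 and 65 when the known miRNA total was the library size. The Audic-Claverie formula (one-sided), an exact comparison of the reads of the 2 libraries and not of the treatments, gave p = 1.39e-40 for miR159 and p = 1.41e-40 for miR858, against p = 0.211 for miR828. Such small values were common, as 91% of the known miRNAs that passed the filter were below 0.01. When a biological coefficient of variation of 0.2 was assumed in edgeR's exact test with the clean-read totals, p was 0.32 for miR159 and 0.00572 for miR858. With an assumed 0.4 it was 0.624 for miR159 and 0.165 for miR858. The variation between plants was not measured, and neither assumption could be checked. The exact test was not run with the other library sizes compared further on.

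With a lower threshold and the clean-read totals, miR858 passed and miR159 did not. MiR858 was past a log2 ratio of -1, as were 29.9% of the known miRNAs that passed the filter, and past a linear ratio of 1.5 on the lower side, as were 39.8%. Of the 5 library sizes compared further on, miR858 was past -1 under 2 and past the linear ratio under 4. The 2 were the clean-read totals and the same totals exchanged between the libraries (-1.44). The exchanged totals, which are also among the 4, do not give the deposited RPM values. The median log2 ratio of all 324 was -0.30, and 59% of them were below 0. MiR159 was 0.11 below this median on the log2 scale and miR858 was 0.88 below it. A log2 ratio lower than that of miR159 was found for 46.0% of the 324, and one lower than that of miR858 for 27.5%.

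The filter admits a name that is abundant in only 1 of the libraries, and such names have large ratios in either direction, with quartiles of all 324 at -1.58 and 3.02. Both miR159 and miR858 had at least 10 RPM in both libraries, as did 149 of the names. The log2 ratios of these 149 lay closer together, with quartiles at -0.63 and 0.10 and a median of -0.29, and 69.1% of them were below 0. MiR159 was near the median, with 40.9% of the 149 below it. MiR858 was below the lower quartile, and 13 of the 149, or 8.72%, had a lower log2 ratio. Of the 149, 12.8% were past -1 on the log2 scale, 5.37% past -1.5, and 30.2% past a linear ratio of 1.5 on the lower side.

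**Figure D2:**
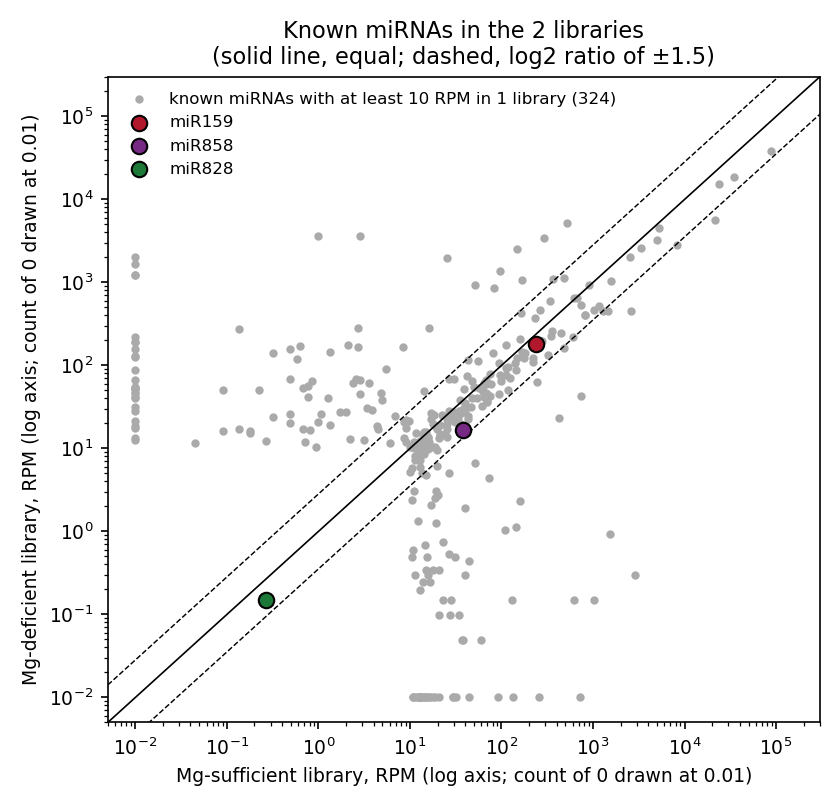
Each grey point is 1 of the 324 known miRNAs that reached 10 RPM in either library, with its RPM in the control (Mg-sufficient) library on the x axis and in the deficient library on the y axis (log axes, a count of 0 drawn at 0.01); the solid line is equality and the dashed lines are log2 ratios of 1.5 in either direction. MiR159 (red), miR858 (purple) and miR828 (green, below the filter) all lie between the dashed lines and, with the clean-read totals used here, below the solid line (miR159 is above equality with the known miRNA total).

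The ratio of miR858 to miR159 within a library does not depend on the library size. There were 15.8 reads of miR858 per 100 reads of miR159 in control leaves and 9.27 in Mg-deficient leaves. The log2 change of this ratio was -0.77 (95% interval, -0.97 to -0.58), with p = 7.6e-16 in Fisher's exact test (two-sided), which compares the 2 libraries. MiR858 and miR159 thus differed in their ratios between the 2 libraries by more than the counting error. Of the summed reads of the 3 members, miR159 made up 86.3% in the control and 91.4% in the deficient library, and miR858 made up 13.6% and 8.48%, respectively. The ratio of miR828 to miR858 changed by 0.31 on the log2 scale, with an interval from -2.33 to 2.54, and its change was not detectable.

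The direction of miR159 changed with the library size. Its share of all known miRNA counts was 0.104% (95% Wilson interval, 0.101 to 0.107%) in control leaves and 0.121% (0.118 to 0.125%) in Mg-deficient leaves, a higher value, while its RPM was lower. As a log2 ratio this is 0.23 (0.16 to 0.29). With edgeR's TMM normalization the log2 ratio was -0.07 (-0.13 to -0.01) and with DESeq2's size factors it was -0.04 (-0.10 to 0.02), the latter within the counting error. The study's text gives the clean-read totals for the opposite treatments. With the totals alone exchanged and the counts left in place, the log2 ratio was -0.67. This pairing does not give the deposited RPM values, which follow the totals as used here. Exchanging whole libraries instead would reverse the sign of every log2 ratio. The study's summary of reads gives a higher rRNA share to the library with 20328011 clean reads, here the deficient one, than to the other. These reads are part of the clean-read totals. The part of the changes in rRNA share and in total miRNA share in the results of miR159 and miR858 was not tested.

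MiR858 was lower without Mg under each of the 5 library sizes. Its share of the known miRNA counts was 0.0164% (95% interval, 0.0153 to 0.0176%) with Mg and 0.0113% (0.0101 to 0.0125%) without. This is a log2 ratio of -0.55 (-0.73 to -0.36), the smallest in size of those obtained. The others were -0.84 under TMM, -0.81 under DESeq2's size factors and -1.44 under exchanged totals. None was past 1.5. The median of the 324 known miRNAs moved by the same steps, since each library size shifts the log2 ratio of names counted in both libraries by 1 constant. Against the clean-read totals the shift was 0.63 for the known miRNA total, 0.34 for TMM, 0.37 for DESeq2's size factors and -0.26 for exchanged totals.

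**Figure D3:**
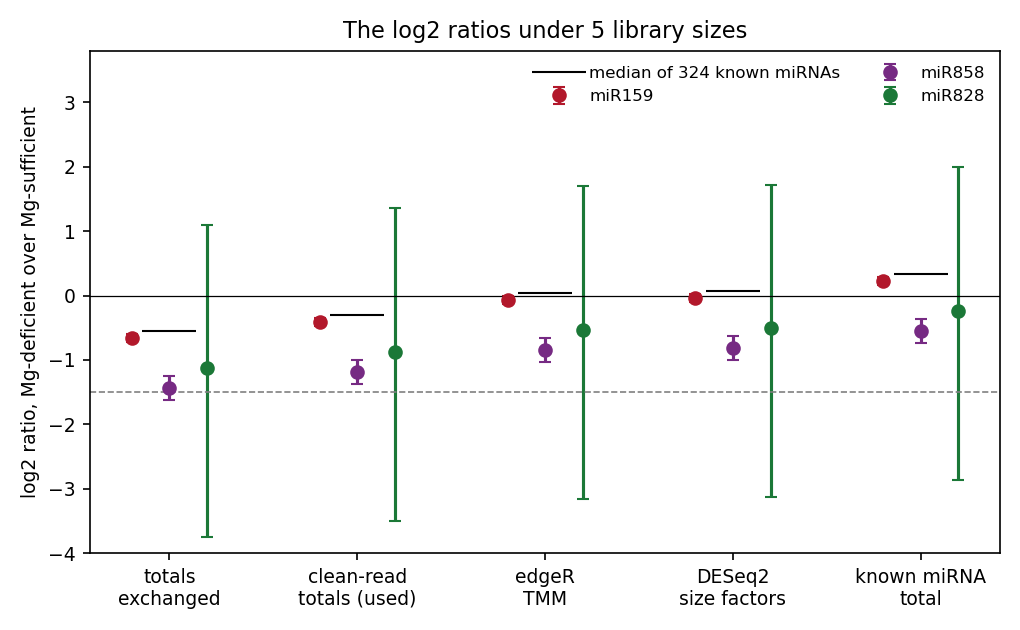
The log2 ratio (deficient over control library) of miR159 (red), miR858 (purple) and miR828 (green) under 5 library sizes along the x axis; bars are 95% intervals of counting error, black dashes are the median of the 324 known miRNAs and the dashed line marks -1.5. MiR159 stays close to the median and crosses 0 to reach 0.23 with the known miRNA total, miR858 stays below the median and below 0 throughout, and the bars of miR828 span 0 throughout.

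The listed sequence of 1 other name, miR5181, overlaps that of miR159. MiR5181 is listed with 18 bases, and its last 15 are the first 15 of miR159, with 0 mismatches. The shared bases are in capitals.
miR159: UUUGGAUUGAAGGGAgcucua
miR5181: cuuUUUGGAUUGAAGGGA
Counts of miR5181 were 4 (0.180 RPM) in control leaves and 309 (15.2 RPM) in Mg-deficient leaves, which gives a log2 ratio of 6.40 (5.03 to 8.28). With the clean-read totals it was thus on the opposite side of 0 from miR159, which was itself above 0 with the known miRNA total. There were 8.47 reads of miR5181 per 100 reads of miR159 without Mg, against 0.0755 with Mg. When the counts of both names were summed, 5299 and 3956 counts were obtained and the log2 ratio was -0.29 (-0.35 to -0.23), nearer to 0 than that of miR159 alone. Whether any read was counted under both names was not tested. No listed sequence overlapped that of miR858 by at least 15 bases with up to 2 mismatches, and the closest ones had 5 mismatches over 15 bases.

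The counts under the name miR319 were few. Only 9 counts (0.405 RPM) were found in control leaves and 31 (1.52 RPM) in Mg-deficient leaves. The log2 ratio of miR319 was 1.91 (0.81 to 3.17), and it did not pass the abundance filter. MiR6300, with the seed of miR858, had 2639 counts (119 RPM) and 1940 counts (95.4 RPM), respectively, a log2 ratio of -0.32 (-0.40 to -0.23), and was named after its values were computed.

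Among families that many seed plants share, miR159 and miR858 lay in the run of names with moderately lower values under the clean-read totals. Of the 34 names of this list, all of which are in the table, 27 passed the abundance filter, with a median log2 ratio of -0.78 beside the -0.30 of all known miRNAs that passed. Of the 27, 20 were below 0, 4 were beyond 1.5 on the lower and 3 on the higher side, where over all 324 the shares were 59%, 25.6% and 28.1%, respectively. Most of the 27, 24 names, had at least 10 RPM in both libraries, with 4 beyond 1.5 on the lower and 1 on the higher side. Over the 149 known miRNAs at that level, 69.1% were below 0. Beyond 1.5 were 5.37% of the 149 on the lower side and 12.8% on either side. MiR858 was the 8th lowest and miR159 the 18th lowest of the 27. The list was written from textbook knowledge and with earlier results of these data known.

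Names next to each other in this order have close log2 ratios by the way they were chosen, and their differences are given only to show how finely the counts resolve the order. The neighbours of miR858 in it were miR157 (-1.20) and miR403 (-1.20) on the lower and miR530 (-1.03) and miR162 (-0.94) on the higher side. MiR157 acts on SPL genes of the age pathway and miR403 on AGO2, a protein of antiviral defence. The log2 ratio of miR858 was 0.02 above that of miR403 with an interval of the difference from -0.19 to 0.23, and the intervals against miR157 and miR530 included 0 as well. Against miR162, which acts on the miRNA-processing enzyme DCL1, the difference was -0.24 (-0.46 to -0.02) and was larger than the counting error.

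The neighbours of miR159 were miR393 (-0.63) and miR396 (-0.49) on the lower and miR172 (-0.37) and miR168 (-0.30) on the higher side. MiR396 acts on GRF genes of leaf growth, and the difference of miR159 from it was 0.08 (95% interval, -0.02 to 0.17). The difference from miR172, which acts on AP2-like genes, was -0.04 (-0.10 to 0.03). Both were within the counting error. The differences from miR393, of 0.22 (0.08 to 0.35), and from miR168, of -0.11 (-0.17 to -0.05), were larger than it. MiR393 acts on auxin receptor genes and miR168 on AGO1. These intervals are Wald intervals of counts, and their 8 comparisons cover the libraries only.

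**Figure D4:**
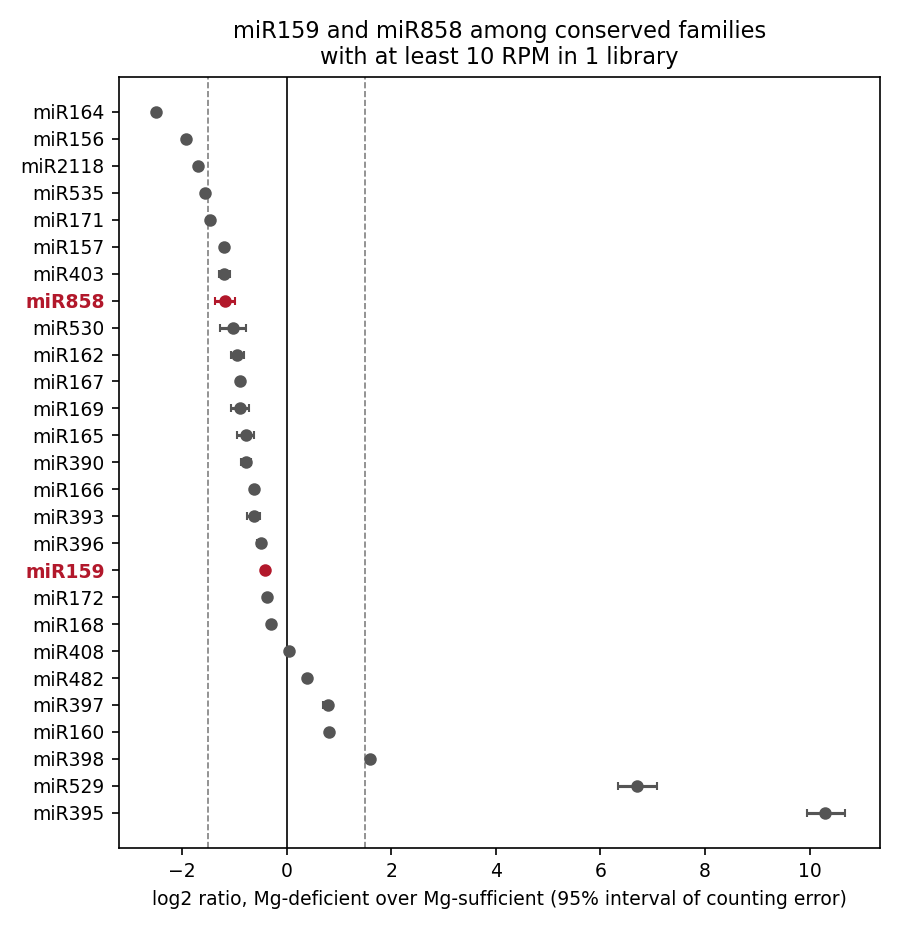
The log2 ratio (deficient over control library, x axis) of the 27 conserved families that reached 10 RPM in either library, in order from the lowest at the top; bars are 95% intervals of counting error, often smaller than the points, and dashed lines mark 1.5 in either direction. MiR858 (red, 8th from the top, -1.18) and miR159 (red, 18th, -0.41) lie between the lower dashed line and 0 under the clean-read totals, while miR159 is above 0 under the known miRNA total.

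By level in both libraries together, the known miRNA nearest to miR159 was miR1171, with 276 RPM in control leaves and 195 RPM in Mg-deficient leaves, at a Euclidean distance of 0.25 in log2 RPM over the 2 libraries. It was followed by miR1159 (0.53) and miR1445 (0.57). The nearest to miR858 was miR169, which acts on NF-YA genes, with 36.1 RPM and 19.5 RPM, respectively, at a distance of 0.24. It was followed by miR8138 (0.45) and miR7838 (0.48). With 2 libraries, such nearness describes a level and a ratio and no shared pattern over conditions.

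A list of 7 miRNA names linked to flavonoid or lignin synthesis was also examined. It holds miR828 and miR858, miR156 and miR157, whose SPL targets act on the MYB complex of anthocyanin synthesis in Arabidopsis, and miR397, miR408 and miR857, which act on laccases or plantacyanin. Of these, 5 passed the abundance filter, 3 of them below and 2 above 0, with a median log2 ratio of -1.18, that of miR858 itself. MiR156 was beyond 1.5 on the lower side, as were 25.6% of all 324, and no name was on the higher side, where 28.1% of all were. All 5 had at least 10 RPM in both libraries. Of the 149 known miRNAs at that level, 5.37% were beyond 1.5 on the lower side and 12.8% on either side. With the known miRNA total the log2 ratio of miR156 was -1.28 and no name of the list was beyond 1.5. The values of miR157 and miR156 were -1.20 and -1.92, while those of miR408 and miR397 were 0.04 and 0.78. MiR857 had 7 and 10 counts and, as miR828, did not pass.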

How the data were processed

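Small RNA of 2 mixed leaf samples was sequenced, 1 library per treatment. The authors trimmed the raw reads to clean reads, kept those that mapped perfectly to the C. sinensis genome (SOAP), took out structural RNA, assigned the rest to plant miRNAs in miRBase (2 mismatches allowed) and deposited a raw count per miRNA name. Whether a read could be counted under more than 1 name is not given in the sources used here. The authors also deposited RPM values, the counts divided by the clean reads of each library, and RPM recomputed here from the counts differed from them by at most 5e-05. Their table of comparisons holds log2 ratios and p-values, of which none were used. Its clean-read totals were used, which the study's text assigns to the opposite treatments.

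A count of 0 was set to 0.01 RPM. The Audic-Claverie tail was computed for all 1215 names. The code of the rule was run on simulated counts that held counting error only, so that variation between plants was not covered. With 1 library per treatment, neither edgeR's quasi-likelihood test nor DESeq2's test could be fitted, and a difference has no replicate check. Alternatives were 4 other library sizes (edgeR's TMM and DESeq2's size factors among them), 1 added count, other filters and thresholds, other tests, and summed counts of names with overlapping sequences. Sequences came from the study's list of known miRNAs, and a planned search of citrus proteins for target-site peptides was not run. The miRNAs named are the members, miR319, names with overlapping sequences, miR6300 (chosen after its values were seen), the lists, the neighbours of the members in the conserved list and the 3 names nearest to each member in level. The members and lists were chosen with earlier results of these data known. Python 3.11.15, numpy 2.4.6, scipy 1.17.1, pandas 2.3.3, matplotlib 3.10.9, R 4.3.3, edgeR 4.0.16 and DESeq2 1.42.0 were used.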

Additional observations from a re-analysis of the deposited data

How the results depend on the processing

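When libraries were scaled by their known miRNA counts, the log2 ratio of miR159 turned to 0.23, while those of miR858 and miR828 stayed below 0 with all library sizes. MiR858, at -1.18, was past the threshold only when the threshold was lowered to a log2 ratio of 1 or to 1.5 on the linear scale. The first of these calls was lost with TMM (-0.84), DESeq2's size factors (-0.81) and the known miRNA total (-0.55), and the second with the known miRNA total. The change of the ratio of miR858 to miR159 kept its direction and its side of the threshold under both of its alternatives. No alternative sum was made for miR858, for which no overlapping listed sequence was found, or for miR828, whose sequence was not compared. The median log2 ratio of all known miRNAs that passed the filter of each setting was -0.61 with the totals exchanged, 0.45 with the known miRNA total, 0.13 with TMM, 0.17 with DESeq2's size factors, -0.48 with no abundance filter and -0.14 with at least 50 RPM. Beyond 1.5, 336 were higher and 419 lower with no filter, 11 and 8 with 10 RPM in both libraries and 49 and 23 with 50 RPM in 1, and 110 and 129 by the linear ratio. Of the conserved families, 1 was lower with the known miRNA total (median, -0.15), 2 with TMM and 2 with DESeq2's size factors. With 10 RPM required in both libraries, 1 was higher. By the linear ratio 5 were higher and 16 lower, and past a log2 ratio of 1, 9 were lower. No paired analysis was possible because each treatment has 1 library. MiR828, with 6 and 3 counts, is limited by depth.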

Other observations

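MiR828 is one of the miRNAs that start phased small interfering RNAs, and those of its kind that are in the count table used here include more abundant names. Of a list of 10 such names, 9 are in the count table and 7 passed the abundance filter, with 4 below and 3 above 0 and a median log2 ratio of -0.14 beside the -0.30 of all known miRNAs that passed. MiR2118 (-1.69) was beyond 1.5 on the lower side and miR1507 (1.99), which like miR2118 acts on disease resistance genes, on the higher side, where 25.6% and 28.1% of all known miRNAs that passed were lower and higher, respectively. MiR2118 was short of 1.5 with 3 of the 5 library sizes, at -1.36 under TMM, -1.33 under DESeq2's size factors and -1.06 under the known miRNA total. MiR7122 (-0.14), miR472 (0.10) and miR482 (0.39) lay closer to 0, and miR390 (-0.78) and miR393 (-0.63) were between. MiR173 had 70 counts in control leaves and 16 in Mg-deficient leaves and, like miR828, did not pass the filter.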
